A study of Mus musculus with 6 samples.

Results

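Dhx34 and 7 core factors of nonsense-mediated mRNA decay, Upf1, Upf2, Upf3a, Upf3b, Smg1, Smg5 and Smg6, were followed through mouse 2-cell embryos as 8 of the 26982 genes in the count table. They were taken by exact gene name. The 7 were named by function, whereas Dhx34 was selected on its measured level, because it was nearly absent from Suv39h1mut embryos. Its levels are therefore given as a description with no test. All 8 passed the low-count filter that left 17638 genes. Injection took place at 18 h phCG, counted from the hormone given to bring on ovulation, into zygotes and at 0.6 µg/µl of mRNA. The first group received the wild-type form of Suv39h1 (Suv39h1wt) and the second a mutant form (Suv39h1mut), while the third was not injected (Non-injected). All 3 groups were grown in KSOM, an embryo culture medium, and each gave 2 libraries, 6 in all. Suv39h1 encodes a histone methyltransferase that places the heterochromatin mark H3K9me3. The nature of the mutation, the mouse strain and the number of embryos behind a library are not given in the sources used here.

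Nonsense-mediated decay removes transcripts whose translation ends too early, and it also lowers many normal transcripts with upstream reading frames or introns after the stop codon. The helicase UPF1 is the centre of the pathway. UPF2 and UPF3 proteins link it to exon junction complexes left by splicing, the kinase SMG1 phosphorylates it, and SMG5 and SMG6 bind the phosphorylated form and bring about decay. DHX34, a DEAH-box RNA helicase, binds UPF1 and SMG1 and promotes UPF1 phosphorylation in human cells. In mice, embryos that lack Upf1, Upf2, Smg1 or Smg6 do not complete development. At the 2-cell stage the mouse embryo begins wide transcription of its own genes while transcripts inherited from the oocyte are degraded.

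The start regions of these genes are shown because 5 of the 8 hold a shared 6-base word. The word played no part in choosing the genes, but was itself picked after their sequences were seen. RefSeq promoter windows, 250 bases before to 50 bases after each start on the GRCm38.p6 build, were matched by symbol for all 8 genes, with 2 starts for Dhx34 and 1 for each other gene. The Dhx34 stretch is the 250 bases before its first start, on the minus strand at chr7:16222033-16222282, and the other lines are windows of 30 bases around the same 6-base word. The capitals mark TCGCGA, which is its own reverse complement.
Dhx34: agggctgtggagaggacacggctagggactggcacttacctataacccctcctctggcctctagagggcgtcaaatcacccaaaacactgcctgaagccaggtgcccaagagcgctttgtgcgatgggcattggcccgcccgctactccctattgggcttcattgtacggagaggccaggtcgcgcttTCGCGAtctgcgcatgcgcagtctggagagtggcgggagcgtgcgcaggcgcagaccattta
Upf1: gcggggccaagtTCGCGAgcccaggtcctt
Upf3a: gctgcctagtccTCGCGAggcttcgttctc
Upf3b: ggccttaaactcTCGCGAgatctccgggag
Smg5, first match: gaaggcaattttTCGCGAgacttggtgggt
Smg5, second match: tggcggcagctaTCGCGAgatttgataggt
The windows lie at chr8:70353466-70353495 on the minus strand for Upf1, chr8:13785621-13785650 on the plus strand for Upf3a and chrX:37110373-37110402 on the minus strand for Upf3b. Those of Smg5 lie on the plus strand at chr3:88336188-88336217 and chr3:88336237-88336266. The word began 62 bases before the first start of Dhx34, 204 before that of Upf1, 68 before that of Upf3b, 60 and 11 before that of Smg5, and 18 bases after that of Upf3a.

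TCGCGA was thus present in the windows of 5 of the 8 genes and not in those of Upf2, Smg1 and Smg6. It was in 2.50% of all 32851 RefSeq promoter windows, and in 2.58% of windows with only the first of each gene taken. The word was chosen after the sequences were seen, so the counts describe these windows and were not tested. The members' windows were rich in CG dinucleotides, with 22 in Upf3b, 23 in Dhx34 and Smg5, 27 in Upf2, 29 in Upf3a, 30 in Smg1, 38 in Smg6 and 47 in Upf1, and the median of all windows was 7. Among the 7588 windows with at least 22 CG, 7.56% held TCGCGA. The word GGGCGG or its reverse complement CCGCCC was in 7 of the 8 genes against 35.7% of all windows, and CCAAT or ATTGG in 4 of the 8 against 37.4%. TATAAA or TTTATA was in 0 of the 8, against 13.6%. For these other words no share among the CG-rich windows was computed, so they are not matched for CG content and were not tested. A match is a description of letters only and does not show that a factor binds there.

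Total gene counts ran from 33.5 M to 48.6 M per library, and 18463 to 22349 genes had at least 1 count. Mitochondrial ribosomal RNA took 26.7% to 47.3% of counts. Suv39h1 itself, which the injected mRNA encodes, averaged 44.6 ± 9.33, 34.8 ± 9.60 and 38.2 ± 4.42 CPM in Suv39h1wt, Suv39h1mut and Non-injected embryos (SD, n = 2 each), so its counts did not set the injected groups apart. CPM are counts scaled to library size (TMM). The 2-cell label was checked against marker genes: 6 of 9 listed 2-cell markers were in the table, with summed levels of 912.7 and 849.7 CPM in Suv39h1wt, 626.0 and 536.9 CPM in Suv39h1mut and 304.8 and 350.4 CPM in Non-injected libraries. All 6 oocyte markers were present, at 688.0 to 1154 CPM in sum over the libraries. Summed levels were 3.28 to 8.74 CPM for 6 of 7 cumulus and granulosa markers, 0.594 to 6.54 CPM for 2 of 3 blood markers and 0 to 0.862 CPM for 3 of 4 sperm markers. Among these cumulus and granulosa markers, Fshr, Inha and Amh had at most 8 counts in any library. Cyp19a1 had 25 to 217 counts per library and Has2 had 0 to 213. Foxl2 had 224 counts in Suv39h1wt replicate 2 and 0 or 1 in every other library. Whether the 2 libraries of each group are separate collections of embryos is not in the labels, and the p-values then measure the spread among 6 libraries, which may be technical. In such whole-embryo RNA, fewer cells of a type and less RNA per cell cannot be told apart.

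Dhx34 (ENSMUSG00000006019, mm9 chr7:16782496-16807386) was detected in all 6 libraries but stood close to 0 in both Suv39h1mut libraries. Gene positions are those of the authors' mm9 table, unlike the promoter windows. Dhx34 had 133 and 265 counts in Suv39h1wt, 7 and 1 in Suv39h1mut, and 106 and 309 in Non-injected embryos. At the library sizes here these were 2.55 and 7.99 CPM in Suv39h1wt, 0.134 and 0.0212 CPM in Suv39h1mut, and 2.70 and 9.46 CPM in Non-injected embryos. The lowest library outside Suv39h1mut was thus well above the higher Suv39h1mut library, and the Suv39h1wt and Non-injected libraries overlapped. Group means were 5.27 ± 3.84, 0.0776 ± 0.0798 and 6.08 ± 4.78 CPM in Suv39h1wt, Suv39h1mut and Non-injected embryos (SD, n = 2 each). The spread within each group was wide: the higher library stood over the lower by 3.13 times in Suv39h1wt, 6.34 times in Suv39h1mut and 3.50 times in Non-injected embryos.

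The size of the Dhx34 difference could be given only loosely because it rests on 8 Suv39h1mut reads. Its log2 fold change in the edgeR fit was 6.02 ± 1.60 (SE) for Suv39h1wt over Suv39h1mut, -6.23 ± 1.61 for Suv39h1mut over Non-injected and -0.21 ± 1.25 for Suv39h1wt over Non-injected. These values chose the gene or share libraries with those that did, so they carry no test. Between libraries of replicate number 1, the ratio of Suv39h1wt to Suv39h1mut was 19.0, with a 95% exact counting interval of 8.99 to 48.3. Between those of number 2 it was 377.4, with an interval of 67.2 to 14963. The ratio of Non-injected to Suv39h1mut was 20.2 for number 1 (9.46 to 51.4) and 447.1 for number 2 (79.7 to 17717). These intervals take each read as an independent count, which reads of amplified cDNA are not, so they understate the error. They leave out the spread between embryos and rest on the counts that chose the gene. Leaving out 1 library at a time moved the log2 fold change between 4.99 (without Suv39h1wt replicate 2) and 7.76 (without Suv39h1mut replicate 1) for Suv39h1wt over Suv39h1mut. For Suv39h1mut over Non-injected, leaving out the first Suv39h1mut library gave the lowest value, -7.97, and leaving out the second Non-injected library the highest, -5.06. For Suv39h1wt over Non-injected it lay between -1.24 (without Suv39h1wt replicate 2) and 0.96 (without Non-injected replicate 2). In the authors' deposited table the log2 value of Dhx34 for Suv39h1wt over Suv39h1mut was 2.81 with an adjusted p of 0.0180, while the other 7 members had log2 values of -0.27 to 0.61 and adjusted p of 0.868 to 0.989. The Dhx34 value there is smaller than the one fitted here, and the authors' test is not stated in the sources used here. Its p rests on the same libraries in which Dhx34 was picked, so it is a description and no separate support. Of all 17638 genes in this comparison, the edgeR fit called 0 and DESeq2 called 44, and no p is given for Dhx34 from either.

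The transcripts of Dhx34 in GENCODE M21 (7 transcripts, 5 of them protein coding) shared 0 of 4620 words of 31 bases with other genes, and no other gene in the table overlapped Dhx34. The corresponding shares for the other members ran from 0.0181% in Upf2 to 3.67% in Upf3a. Reads of Upf1 can overlap those of Lass1, which had 0 to 2 counts. Those of Smg6 can overlap Srr (39 to 492 counts), the antisense gene Gm12333 (2 to 199 counts) and the pseudogenes Gm12334 and Gm12335, and the strand setting of the counting is not stated.

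**Figure D1:**
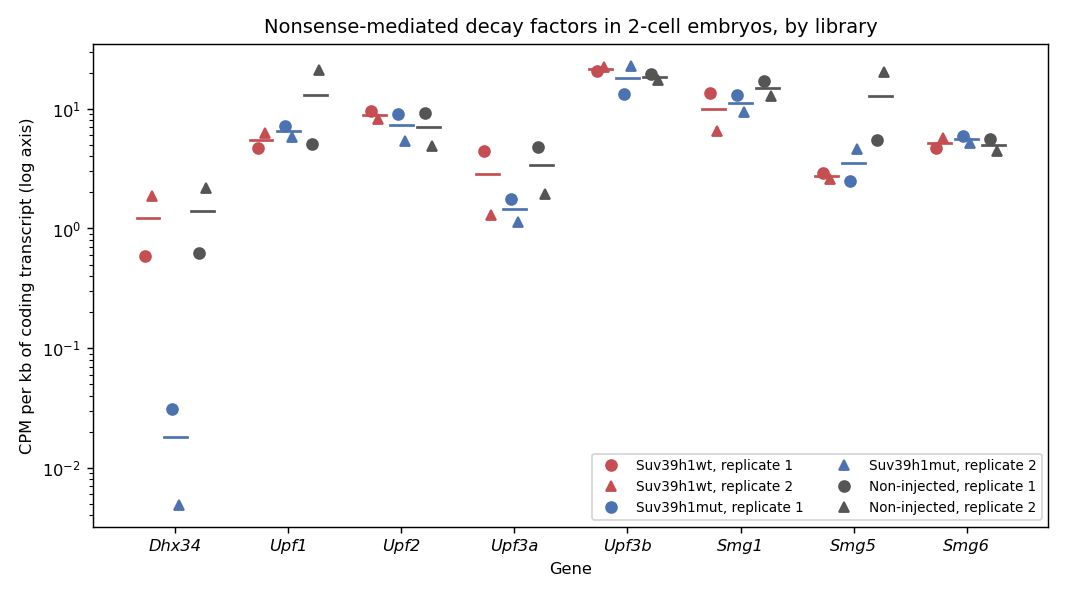
Level of each factor in each library, in CPM per kb of its longest coding transcript on a log axis. Colours mark the groups, circles and triangles mark replicates 1 and 2, and bars are group means (n = 2). Dhx34 in Suv39h1mut, at 0.0311 and 0.00491 CPM per kb, lies far below every other point, and Upf1 and Smg5 each have 1 high Non-injected library.

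Upf1 (ENSMUSG00000058301, chr8:72855421-72877172), the central helicase, stayed in a narrow range in 5 libraries and was high in 1. It was at 21.8 and 29.2 CPM in Suv39h1wt, 33.2 and 27.1 CPM in Suv39h1mut, and 23.3 and 96.7 CPM in Non-injected embryos. The groups overlapped in every comparison, and the single high library was Non-injected replicate 2. The log2 fold change was -0.24 ± 0.67 for Suv39h1wt over Suv39h1mut, -1.24 ± 0.67 for Suv39h1wt over Non-injected and -0.99 ± 0.67 for Suv39h1mut over Non-injected. Without Non-injected replicate 2 the last pair were 0.13 and 0.37, so their sign rested on that library.

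Upf2 (ENSMUSG00000043241, chr2:5872515-5977749), the bridge between UPF1 and the UPF3 proteins, was at 49.8 and 42.2 CPM in Suv39h1wt, 47.2 and 28.1 CPM in Suv39h1mut, and 48.1 and 25.4 CPM in Non-injected embryos. Its groups overlapped, and within each of them replicate 2 was the lower library. The log2 fold changes were 0.29 ± 0.55, 0.32 ± 0.55 and 0.03 ± 0.55 for Suv39h1wt over Suv39h1mut, Suv39h1wt over Non-injected and Suv39h1mut over Non-injected. Each took the opposite sign when 1 library was left out, reaching -0.019 without Suv39h1mut replicate 2, -0.059 without Non-injected replicate 2 and -0.38 without Suv39h1mut replicate 1.

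The UPF3 paralogs, which bind UPF2 and the exon junction complex, differed in level, Upf3b being the more abundant per kb in every library. Upf3b (ENSMUSG00000036572, chrX:34631673-34650335) was among the steadiest members, at 48.6 and 51.9 CPM in Suv39h1wt, 31.4 and 53.4 CPM in Suv39h1mut, and 46.1 and 40.4 CPM in Non-injected embryos. Its 2 Suv39h1wt libraries lay just above the Non-injected ones, with a log2 fold change of 0.22 ± 0.50. The other fold changes were 0.24 ± 0.50 for Suv39h1wt over Suv39h1mut, which was -0.086 without Suv39h1mut replicate 1, and -0.03 ± 0.50 for Suv39h1mut over Non-injected. The last was 0.31 without Suv39h1mut replicate 1, 0.12 without Non-injected replicate 1 and 0.065 with upper-quartile scaling.

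Upf3a (ENSMUSG00000038398, chr8:13785615-13798538), which has the weaker activity of the pair in decay, was at 9.12 and 2.68 CPM in Suv39h1wt, 3.60 and 2.35 CPM in Suv39h1mut, and 9.85 and 4.01 CPM in Non-injected embryos. Both Suv39h1mut libraries were below both Non-injected libraries, by a margin of 3.60 against 4.01 CPM at the closest. The log2 fold change was -1.22 ± 1.06 for Suv39h1mut over Non-injected, 0.99 ± 1.06 for Suv39h1wt over Suv39h1mut and -0.23 ± 1.05 for Suv39h1wt over Non-injected. The first of these was -0.38 without Non-injected replicate 1 and -1.72 without Non-injected replicate 2. The Suv39h1wt over Suv39h1mut value ran from -0.12 without Suv39h1wt replicate 1 to 1.63. Per kb, Upf3a stood at 21.4% and 5.89% of Upf3b in Suv39h1wt, 13.1% and 5.01% in Suv39h1mut, and 24.3% and 11.3% in Non-injected libraries. The ratio was lower in replicate 2 in each group, and the groups overlapped.

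Smg1 (ENSMUSG00000030655, chr7:125274832-125387151), the kinase that phosphorylates UPF1, had the most counts of the 8 genes in each library, 3355 to 10934, from the longest transcript. It was at 209.9 and 101.1 CPM in Suv39h1wt, 202.2 and 146.9 CPM in Suv39h1mut, and 264.1 and 198.6 CPM in Non-injected embryos. Replicate 2 was again the lower library in each group, and the groups overlapped. Set against the Non-injected library of the same number, both Suv39h1wt libraries were lower, by log2 differences of -0.33 and -0.97. A fit that pairs same-numbered libraries (the replicate block) gave a log2 fold change for Suv39h1wt over Non-injected of -0.64 ± 0.27, with an unadjusted edgeR p of 0.0376 and an adjusted p of 0.473, so it did not pass. The log2 fold changes were -0.17 ± 0.49 for Suv39h1wt over Suv39h1mut, -0.57 ± 0.49 for Suv39h1wt over Non-injected and -0.41 ± 0.49 for Suv39h1mut over Non-injected. Leaving out Suv39h1wt replicate 2 gave 0.28 for the first of these, and leaving out Suv39h1mut replicate 1 gave 0.087.

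Smg5 (ENSMUSG00000001415, chr3:88140182-88166259), an adaptor that binds phosphorylated UPF1, showed the lowest fold changes of the 7 in both comparisons with Non-injected embryos. It was at 12.9 and 11.6 CPM in Suv39h1wt, 11.1 and 20.5 CPM in Suv39h1mut, and 24.2 and 90.0 CPM in Non-injected embryos. All 4 injected libraries were below both Non-injected libraries, by 20.5 against 24.2 CPM at the closest, and 1 Non-injected library stood far above the other. The log2 fold change was -2.22 ± 0.72 for Suv39h1wt over Non-injected, with an unadjusted p of 0.0116 and, over all genes tested, an adjusted p of 0.753 in edgeR's quasi-likelihood test, and it was lower in 2 of 2 libraries. For Suv39h1mut over Non-injected it was -1.86 ± 0.71, with an unadjusted edgeR p of 0.0261 and an adjusted p of 0.880, also lower in 2 of 2 libraries. Neither passed. With the replicate block the 2 fold changes were -1.93 ± 0.57 and -1.72 ± 0.55. Their unadjusted edgeR p was 0.0070 and 0.0111 and their adjusted p 0.341 and 0.361, so neither passed there. In the fit with group alone, leaving out Non-injected replicate 2 gave -0.98 and -0.62, so the size of both depended on that library. The 2-cell marker sums differed between the same groups, being higher in both injected groups than in Non-injected embryos, and their part in the Smg5 difference was not tested. Between the injected groups the log2 fold change was -0.36 ± 0.69, and it was 0.16 without Suv39h1mut replicate 2.

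Smg6 (ENSMUSG00000038290, chr11:74739325-74977950), the endonuclease that cuts targeted transcripts near the stop codon, varied least, with its highest library 1.35 times its lowest. It was at 27.6 and 33.2 CPM in Suv39h1wt, 34.9 and 30.1 CPM in Suv39h1mut, and 32.8 and 25.9 CPM in Non-injected embryos. The groups overlapped throughout, and log2 fold changes were -0.10 ± 0.52, 0.05 ± 0.52 and 0.15 ± 0.52 for Suv39h1wt over Suv39h1mut, Suv39h1wt over Non-injected and Suv39h1mut over Non-injected. Each of these 3 changed sign when some single library was left out. Over the 6 libraries the highest level was 1.70 times the lowest for Upf3b, 1.96 times for Upf2, 2.61 times for Smg1, 4.19 times for Upf3a, 4.44 times for Upf1 and 8.15 times for Smg5, against 447.1 times for Dhx34.

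Suv39h1wt against Suv39h1mut sets the wild-type enzyme against its mutant form, and the 7 factors other than Dhx34 gave 0 calls in it. Adjusted p was 1 for each of the 7 in edgeR's quasi-likelihood test, 0 of the 7 had an unadjusted p under 0.05, and DESeq2 also called 0. Over all 17638 genes edgeR called 0 as well (0%), with 480 at an unadjusted p under 0.05 (2.72%), and DESeq2 called 44 (0.249%). Fold changes were positive for 3 and negative for 4 of the 7, with a median log2 value of -0.10 against -0.01 for all genes tested. In 0 of the 7 did the libraries of the groups separate in either direction, whereas 12.3% of all genes had both Suv39h1wt libraries above both Suv39h1mut libraries and 15.1% had them below. The SE of 0.49 to 1.06 on the log2 scale left room for sizeable differences in either direction. That fit leaves out the pairing of same-numbered libraries. With the replicate block the SE was lower for each of the 7, from 0.27 for Smg1 to 0.95 for Upf3a, and 0 passed.

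Against Non-injected embryos, which test injection together with the enzyme, edgeR also called 0 of the 7 in either injected group, and DESeq2 called 0. Smg5 was the 1 factor with an unadjusted edgeR p under 0.05 in each comparison in the fit with group alone. With the replicate block Smg1 was also under 0.05 for Suv39h1wt over Non-injected, where 1803 of all 17638 genes were under 0.05. Over all genes the edgeR fit with group alone called 0 (0%) in both. It had 1086 genes (6.16%) under 0.05 unadjusted for Suv39h1wt and 781 (4.43%) for Suv39h1mut. DESeq2 called 284 (1.61%) and 59 (0.335%). For Suv39h1wt over Non-injected, fold changes were positive for 3 and negative for 4 of the 7, with a median log2 value of -0.23 against 0.02 for all genes. Libraries separated upward in 1 (Upf3b) and downward in 1 (Smg5), beside 16.8% and 17.5% of all genes. For Suv39h1mut over Non-injected, 2 were positive and 5 negative, with a median of -0.41 against 0.02. Libraries separated upward in 0 and downward in 2 (Upf3a and Smg5), beside 18.9% and 16.5% of all genes. The comparisons share their libraries pairwise, so their values are not separate evidence.

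**Figure D2:**
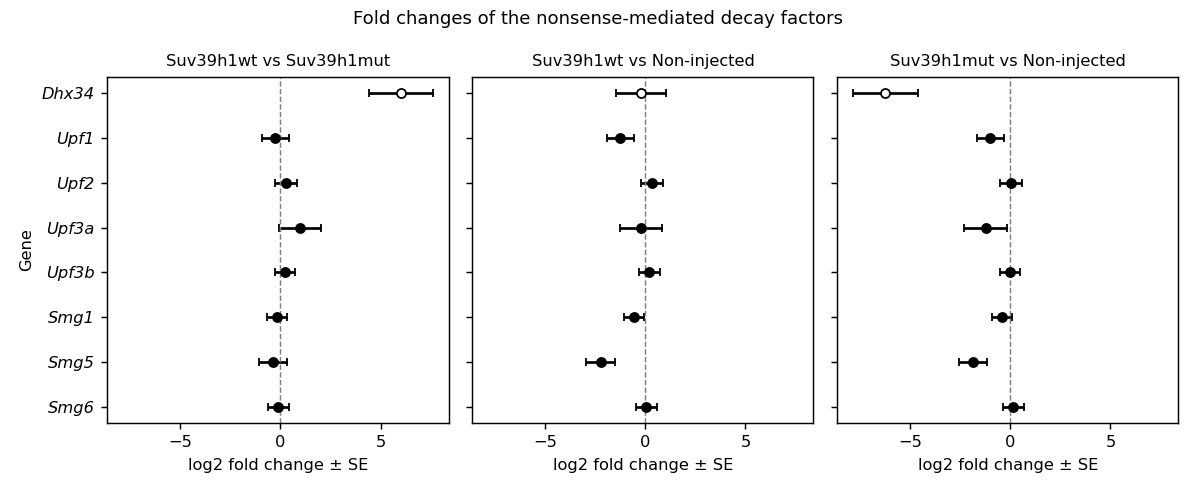
Log2 fold change (points) with its SE (bars) from the edgeR fit for each factor, in 3 panels, Suv39h1wt over Suv39h1mut, Suv39h1wt over Non-injected and Suv39h1mut over Non-injected. The open circle marks Dhx34, which carries no test. Dhx34 is at 6.02, -0.21 and -6.23, while the other 7 lie between -2.22 and 0.99, with Smg5 lowest in the panels against Non-injected.

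Levels were also ordered within each group per kb of the longest protein-coding transcript in GENCODE M21, which allows genes of different length to be compared. In Suv39h1wt embryos the order of mean levels was Upf3b at 21.4 ± 0.999, Smg1 at 9.99 ± 4.94, Upf2 at 8.89 ± 1.03, Upf1 at 5.52 ± 1.14, Smg6 at 5.20 ± 0.673, Upf3a at 2.87 ± 2.21, Smg5 at 2.75 ± 0.203 and Dhx34 at 1.22 ± 0.891 CPM per kb (SD, n = 2). In Suv39h1mut embryos it was Upf3b at 18.1 ± 6.64, Smg1 at 11.2 ± 2.51, Upf2 at 7.27 ± 2.60, Upf1 at 6.53 ± 0.935, Smg6 at 5.56 ± 0.581, Smg5 at 3.54 ± 1.496, Upf3a at 1.45 ± 0.430 and Dhx34 at 0.0180 ± 0.0185 CPM per kb. In Non-injected embryos it was Upf3b at 18.5 ± 1.72, Smg1 at 14.9 ± 2.98, Upf1 at 13.0 ± 11.2, Smg5 at 12.8 ± 10.5, Upf2 at 7.11 ± 3.11, Smg6 at 5.02 ± 0.832, Upf3a at 3.37 ± 2.01 and Dhx34 at 1.41 ± 1.11 CPM per kb. Upf3b was first, Smg1 next and Dhx34 last in each group.

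The libraries of neighbours in that order overlapped in 3 of 7 pairs in Suv39h1wt, 2 of 7 in Suv39h1mut and 6 of 7 in Non-injected embryos. In Suv39h1wt the Smg1 libraries overlapped those of Upf2, as did those of Upf1 and Smg6 and those of Upf3a and Smg5, while the Upf3b libraries stood clear of Smg1. In Non-injected embryos the wide spread of Upf1 and Smg5 overlapped most of their neighbours, and Upf3b still stood above Smg1, at 17.2 CPM per kb at the lowest against 17.0 at the highest. In Suv39h1mut, Upf3b, Smg1 and Upf2 stood apart from each other, though by little, at 13.4 against 13.0 and 9.45 against 9.11 CPM per kb at the closest. The Suv39h1mut libraries of Dhx34 stood clear of every other member. The order depends on the length used. With the lengths behind the authors' deposited per-kb values, which are shorter for Smg6 and Upf2 (1.46 and 2.83 kb, against 5.85 and 5.17 kb), Smg6 was next after Upf3b at 20.9 CPM per kb in Suv39h1wt, 22.3 in Suv39h1mut and 20.2 in Non-injected embryos. By group mean, Dhx34 was last on either length.

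Set beside the helicase it binds, Dhx34 stood per kb at 12.6% and 29.3% of Upf1 in Suv39h1wt libraries, at 0.433% and 0.0837% in Suv39h1mut libraries and at 12.4% and 10.5% in Non-injected libraries. The ratio follows from the Dhx34 values that chose the gene. Smg5 stood at 61.4% and 41.2% of Upf1 in Suv39h1wt, 34.6% and 78.4% in Suv39h1mut, and 107.7% and 96.6% in Non-injected libraries. Both Non-injected libraries were thus above the 4 injected ones in that ratio, also where Upf1 and Smg5 were both high. This ratio was not among those planned and holds the same Smg5 counts, so it is a description and no separate support. Summed over the 7 factors other than Dhx34, levels were 379.6 and 272.0 CPM in Suv39h1wt, 363.6 and 308.5 CPM in Suv39h1mut and 448.5 and 481.1 CPM in Non-injected libraries, with both Non-injected sums above the other 4. Smg1 made up more of the sum than the other 6 factors together in replicate 1 of each group, and less in replicate 2.

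Across the 6 libraries, which differ in group, depth and replicate number, correlations between members had both signs. The Pearson correlation of log2(CPM + 0.5) was 0.83 between Upf1 and Smg5 and 0.77 between Upf3a and Smg1, and it was -0.75 between Upf2 and Smg5 and -0.71 between Upf1 and Upf2. Upf1 and Smg5 were both highest, and Upf2 lowest, in Non-injected replicate 2 (96.7, 90.0 and 25.4 CPM). The values that involve Upf1 or Smg5 thus lean on that library, and they were not computed without it. Dhx34 correlated with the other 7 at -0.40 to 0.43. By the same measure, among 13421 genes that averaged 1 CPM or more, the 5 genes most like Dhx34 were Hat1 (r = 0.99), Hmgb3 (0.99), Atrip (0.98), H2afv (0.98) and Chd2 (0.97). These values describe the 6 libraries only.

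The similar genes were higher than Dhx34 in every library, in Suv39h1mut and outside it. They were matched on correlation and not on level. Hat1, a histone acetyltransferase, was at 20.6 and 32.6 CPM in Suv39h1wt, 12.2 and 12.2 CPM in Suv39h1mut, and 23.7 and 38.8 CPM in Non-injected embryos. Atrip, the partner of the checkpoint kinase ATR, was at 5.72 and 9.13 CPM in Suv39h1wt, 1.92 and 1.38 CPM in Suv39h1mut, and 6.38 and 17.4 CPM in Non-injected embryos. Chd2, a chromatin remodeller, was at 14.01 and 26.5 CPM in Suv39h1wt, 6.78 and 5.69 CPM in Suv39h1mut, and 10.7 and 25.0 CPM in Non-injected embryos. H2afv, a histone variant, was at 51.9 and 58.2 CPM in Suv39h1wt, 33.0 and 28.8 CPM in Suv39h1mut, and 50.4 and 74.2 CPM in Non-injected embryos. Hmgb3, a chromatin protein, was at 137.4 and 165.0 CPM in Suv39h1wt, 111.8 and 111.2 CPM in Suv39h1mut, and 151.0 and 167.5 CPM in Non-injected embryos. In all 5 both Suv39h1mut libraries were below the other 4, which the choice of genes fixed.

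The genes next to Dhx34 on chromosome 7 did not share its pattern. Of the 3 on either side with at least 10 counts in all, 4 were tested. Kptn, 69.6 kb away, had 26 and 0 counts in Suv39h1wt, 70 and 193 in Suv39h1mut, and 12 and 10 in Non-injected embryos. Slc8a2, a sodium-calcium exchanger gene 36.6 kb away, had 5 and 0 counts in Suv39h1wt, 96 and 34 in Suv39h1mut, and 12 and 188 in Non-injected embryos. Gpr77, a complement C5a receptor gene 12.5 kb away, had 24 and 15 counts in Suv39h1wt, 47 and 48 in Suv39h1mut, and 26 and 26 in Non-injected embryos. These 3 had both Suv39h1wt libraries below both Suv39h1mut libraries, the opposite of Dhx34, where 15.1% of all genes did. Their log2 fold changes for Suv39h1wt over Suv39h1mut were -3.41, -4.58 and -1.06, and adjusted p was 1 in edgeR's quasi-likelihood test for all 3. Prr24, 49.98 kb away, overlapped between groups, with 27 and 325 counts in Suv39h1wt, 224 and 62 in Suv39h1mut, and 22 and 171 in Non-injected embryos. Meis3 and C5ar1, the nearest gene on one side and the second on the other, did not pass the filter, and Meis3 had 393 of its 405 counts in Non-injected replicate 2.

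**Figure D3:**
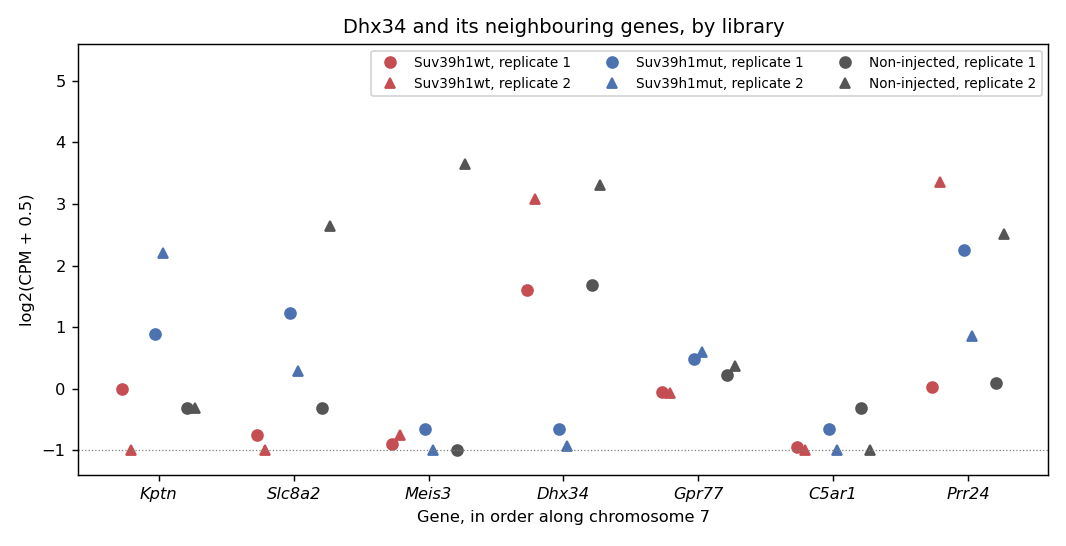
Log2(CPM + 0.5) of Dhx34 and the 3 genes on either side of it, in their order along chromosome 7, with colours for groups and circles and triangles for replicates 1 and 2. The dotted line is the value of a library with 0 counts. Dhx34 is high in Suv39h1wt and Non-injected libraries and near the line in Suv39h1mut, whereas Kptn and Gpr77 are highest in Suv39h1mut.

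Lists of other genes of the pathway were set beside the members: further core factors, the exon junction complex, translation termination and cap binding, decapping and 5′-3′ decay, the partners of SMG1, known target transcripts, and the other DEAH-box helicases. Of 55 genes, 54 were tested, and edgeR called 0 in either direction in any comparison, as did DESeq2. At an unadjusted edgeR p under 0.05 there were 2 for Suv39h1wt over Suv39h1mut, 2 for Suv39h1wt over Non-injected and 5 for Suv39h1mut over Non-injected, beside 2.72%, 6.16% and 4.43% of all genes. The median log2 fold changes of the 54 were 0.07, -0.13 and -0.34, against -0.01, 0.02 and 0.02 for all genes tested. The libraries separated upward in 9, 6 and 8 of the 54 in these comparisons, where 12.3%, 16.8% and 18.9% of all genes did. They separated downward in 6, 12 and 19 of the 54, where 15.1%, 17.5% and 16.5% of all genes did.

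The remaining core factors had fold changes of both signs, with 2 of 4 positive for Suv39h1wt over Suv39h1mut and a median log2 value of -0.06. Smg9, a regulator of SMG1 kinase activity, averaged 0.576 ± 0.516 CPM in Suv39h1wt, 2.02 ± 1.31 in Suv39h1mut and 5.28 ± 2.14 in Non-injected embryos, with a log2 fold change of -1.79 ± 1.37 for Suv39h1wt over Suv39h1mut. Smg8, its partner, averaged 17.0 ± 6.62 CPM, 9.83 ± 5.35 CPM and 34.8 ± 23.1 CPM in the same order of groups, with a log2 fold change of 0.79 ± 0.73. Against Non-injected embryos, 3 of the 4 were negative in each comparison, with medians of -0.68 for Suv39h1wt and -0.88 for Suv39h1mut. In the exon junction complex 5 of 6 were positive for Suv39h1wt over Suv39h1mut (median 0.33). Against Non-injected embryos 3 of 6 were positive for Suv39h1wt and 1 of 6 for Suv39h1mut. Rbm8a, a core protein of the complex, averaged 90.7 ± 19.5, 57.0 ± 19.2 and 124.2 ± 17.6 CPM in Suv39h1wt, Suv39h1mut and Non-injected embryos, with log2 fold changes of 0.67 ± 0.47 for Suv39h1wt over Suv39h1mut and -1.12 ± 0.48 for Suv39h1mut over Non-injected. Magohb, whose protein forms a dimer with RBM8A, averaged 5.37 ± 2.23, 2.49 ± 0.914 and 2.51 ± 0.520 CPM in Suv39h1wt, Suv39h1mut and Non-injected embryos, a log2 fold change of 1.11 ± 1.13 for Suv39h1wt over Suv39h1mut.

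Termination and cap-binding genes lay close to 0 between the injected groups, with 5 of 7 positive and a median of 0.11, and 6 of 7 were negative in each comparison with Non-injected embryos, with medians of -0.38 and -0.51. Ncbp2, the cap-binding subunit, averaged 56.5 ± 2.02, 44.8 ± 9.11 and 68.6 ± 0.839 CPM in Suv39h1wt, Suv39h1mut and Non-injected embryos. Gspt1, a release factor, averaged 38.7 ± 16.1, 47.3 ± 17.5 and 50.4 ± 13.7 CPM. Their log2 fold changes for Suv39h1wt over Suv39h1mut were 0.34 ± 0.46 and -0.29 ± 0.55. The decapping genes had medians of -0.11, 0.36 and 0.64 for Suv39h1wt over Suv39h1mut, Suv39h1wt over Non-injected and Suv39h1mut over Non-injected. Among them the decapping enhancer Edc3 averaged 2.64 ± 1.29, 0.494 ± 0.250 and 3.66 ± 3.62 CPM in Suv39h1wt, Suv39h1mut and Non-injected embryos, a log2 fold change of 2.41 ± 1.48 for Suv39h1wt over Suv39h1mut. Edc4, a scaffold of the decapping complex, averaged 26.8 ± 13.4, 14.4 ± 6.33 and 27.3 ± 11.9 CPM, with a log2 fold change of 0.89 ± 0.67. Of the 5 partners that help assemble SMG1, Ruvbl2 averaged 9.05 ± 0.201, 11.0 ± 8.55 and 20.9 ± 8.93 CPM, and Tti2 4.02 ± 1.68, 4.74 ± 2.91 and 11.0 ± 8.85 CPM. Their log2 fold changes for Suv39h1wt over Suv39h1mut were -0.29 ± 0.78 and -0.24 ± 1.01, and the list had medians of -0.01, -0.62 and -0.70 in the 3 comparisons.

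Transcripts known as targets of the pathway are those whose levels go up when it is impaired. Of 11 listed, 10 were tested, as Arc had 0 to 2 counts. For Suv39h1wt over Suv39h1mut, 8 of 10 were positive, with a median of 0.45, and libraries separated upward in 4 and downward in 1, beside 12.3% and 15.1% of all genes. For Suv39h1mut over Non-injected, 7 of 10 were negative, with a median of -0.76, and libraries separated upward in 1 and downward in 4, beside 18.9% and 16.5% of all genes. For Suv39h1wt over Non-injected, 6 of 10 were positive, with a median of 0.06. The host transcript of small nucleolar RNAs Zfas1 was at 29.1 and 46.2 CPM in Suv39h1wt, 11.5 and 16.4 CPM in Suv39h1mut, and 43.7 and 37.5 CPM in Non-injected embryos. Both Suv39h1mut libraries were below the other 4, with log2 fold changes of 1.43 ± 0.56 for Suv39h1wt over Suv39h1mut and -1.54 ± 0.56 for Suv39h1mut over Non-injected. Ddit3, a stress-induced transcription factor, was at 5.84 and 10.1 CPM in Suv39h1wt, 1.63 and 1.06 CPM in Suv39h1mut, and 7.65 and 2.82 CPM in Non-injected embryos, again with both Suv39h1mut libraries lowest. Its log2 fold changes were 2.56 ± 1.09 for Suv39h1wt over Suv39h1mut and -1.96 ± 1.07 for Suv39h1mut over Non-injected. Adjusted p for both genes was 1 for Suv39h1wt over Suv39h1mut and 0.880 for Suv39h1mut over Non-injected in edgeR's quasi-likelihood test, so neither passed.

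The other DEAH-box helicases, relatives of Dhx34 with other tasks, were detected in all groups, and 6 of 15 were positive for Suv39h1wt over Suv39h1mut, with a median of -0.05. The 15 had 4 positive for Suv39h1wt over Non-injected (median -0.35) and 6 for Suv39h1mut over Non-injected (median -0.05). Dhx40 averaged 19.6 ± 6.04, 30.1 ± 1.49 and 21.4 ± 3.26 CPM in Suv39h1wt, Suv39h1mut and Non-injected embryos, a log2 fold change of -0.62 ± 0.58 for Suv39h1wt over Suv39h1mut. Dhx36, which unwinds G-quadruplexes, averaged 19.6 ± 9.42, 32.2 ± 9.64 and 30.3 ± 24.01 CPM, a log2 fold change of -0.71 ± 0.71. The 15 fold changes for Suv39h1wt over Suv39h1mut lay between -0.71 and 0.77.

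**Figure D4:**
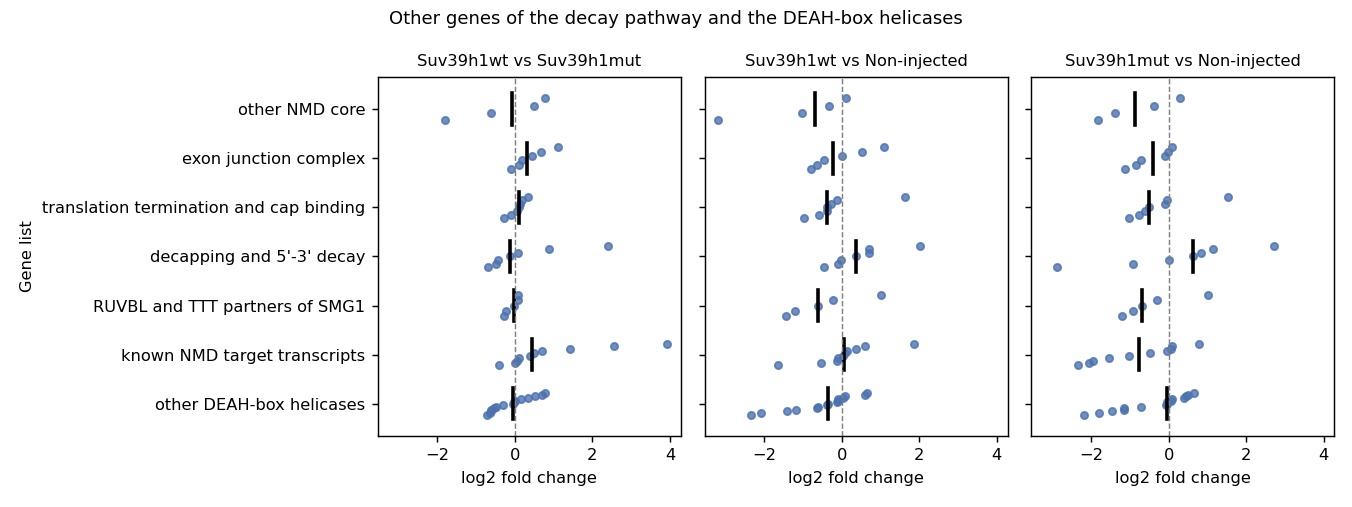
Log2 fold change of each tested gene (points) of 7 lists, with the list's median (black bars), in panels for Suv39h1wt over Suv39h1mut, Suv39h1wt over Non-injected and Suv39h1mut over Non-injected. Medians lie between -0.11 and 0.45 in the panel of the injected groups and between -0.88 and 0.64 in the last panel, where known target transcripts have a median of -0.76. Values are from the edgeR fit, in which 0 of the 54 genes passed.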

How the data were processed

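Amplified cDNA from 2 ng of total RNA, primed with random and poly-T primers (NuGEN Ovation), was sequenced. Per the submitters' processing notes, CASAVA 1.8.2, TopHat2 2.0.14, Bowtie and HTSeq 0.6.1 were used with mm9. Random and poly-T priming also reads ribosomal RNA, and the annotation release, strand setting and the use of multi-mapping reads are not given in the sources used here. Raw read counts of 26982 genes in 6 libraries were deposited by the authors, with 0 columns of per-sample values left unmapped. Per the file headers the same table holds normalized signal values made by the authors, which equalled the count divided by 1 size factor per library (largest relative deviation 5.1e-15), and the same divided by gene length. Log2 fold changes and p-values deposited by the authors, for Suv39h1wt over Suv39h1mut, were used as a description.

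The members and lists were chosen with earlier results of these data known. Raw counts of all genes were fitted with R 4.3.3, edgeR 4.0.16 (robust quasi-likelihood F test) and limma 3.58.1, with a term for group alone. Scaling was by TMM, filterByExpr (minimum count 10) kept 17638 genes, and 3 degrees of freedom remained. An adjusted p under 0.05 (Benjamini-Hochberg, over all these genes) counted as passing. The biological coefficient of variation was 0.862. Alternatives were DESeq2 1.42.0, other scalings, no mitochondrial ribosomal RNA, no filter, 1 library left out, and the replicate number as a block. Levels per kb were first computed with the length behind the authors' values. The longest protein-coding transcript in GENCODE M21 replaced it as the main length after the results were seen, because the authors' length was short for Smg6 and Upf2. Genes named beside the members are the 2 of each list with the smallest p for Suv39h1wt over Suv39h1mut, the 3 neighbours of Dhx34 on either side with at least 10 counts in all, and the 5 genes of at least 1 CPM most correlated with it. Smg8, Smg9 and Zfas1 carry older symbols in the table and were matched through RefSeq synonyms.

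The titles number the libraries 1 and 2 in each group and give no meaning for the number. After subtraction of group means, libraries that carry the same number correlated at 0.179 (Suv39h1wt and Suv39h1mut), 0.118 (Suv39h1wt and Non-injected) and 0.150 (Suv39h1mut and Non-injected) over 17638 genes, and at 0.471 to 0.499 over 6820 genes of at least 10 CPM. All were over 0.1, so the numbers were taken to pair the libraries. Fold changes and p-values are from the fit with group alone unless the block is named. The block gave a coefficient of variation of 0.774.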

Additional observations from a re-analysis of the deposited data

How the results depend on the processing

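Of the 7 factors other than Dhx34, 0 passed in any comparison under the main settings and under each of the 12 alternatives. The replicate block, which pairs same-numbered libraries, gave 0 passing members and 0 passing genes in all 3 comparisons, and it changed no other call. For Suv39h1wt over Suv39h1mut, Suv39h1wt over Non-injected and Suv39h1mut over Non-injected, genes passing in the whole table were 0, 0 and 0 under the main settings, 18, 33 and 9 with no filter on low counts, and 44, 284 and 59 with DESeq2. With 1 library left out they ran from 0 to 18, from 0 to 44 and from 0 to 1, with 18 and 44 without Suv39h1wt replicate 1; a lone library was taken to vary like the other groups. Of 144 member fold changes under other settings than leaving out a library, 143 kept their direction. The 7 factors with a test also kept their side of the threshold. Dhx34, which has no test, moved by less than its spread between replicates. Upf3b for Suv39h1mut over Non-injected turned to 0.065 with upper-quartile scaling, which moved the median of all genes to 0.13. With 1 library left out, 22 of 144 changed sign and 5 Dhx34 values moved by more than the spread between replicates. The log2 fold changes then ran, for Suv39h1wt over Suv39h1mut, from 4.99 to 7.76 for Dhx34, from -0.019 to 0.72 for Upf2, from -0.12 to 1.63 for Upf3a, from -0.086 to 0.69 for Upf3b, from -0.76 to 0.28 for Smg1, from -0.74 to 0.16 for Smg5 and from -0.22 to 0.055 for Smg6. For Suv39h1wt over Non-injected they ran from -1.24 to 0.96 for Dhx34, from -1.86 to 0.13 for Upf1, from -0.059 to 0.92 for Upf2, from -1.35 to 0.62 for Upf3a and from -0.10 to 0.30 for Smg6. For Suv39h1mut over Non-injected they ran from -7.97 to -5.06 for Dhx34, from -1.64 to 0.37 for Upf1, from -0.38 to 0.61 for Upf2, from -0.45 to 0.31 for Upf3b and from -0.011 to 0.37 for Smg6. The causes were not tested. With 2 libraries a group and 8 Suv39h1mut reads of Dhx34, depth leaves the size of its difference imprecise.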
